A study of Homo sapiens with 26 samples.

Results

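The genes described are the 35 nuclear genes of aminoacyl-tRNA synthetases on a list of names, 19 for the cytosolic enzymes and 16 for the mitochondrial ones, among the 63086 genes counted in every library. A symbol ending in 1, FARSA or FARSB placed an enzyme in the cytosol and a symbol ending in 2 placed it in mitochondria. Each gene was found by its Ensembl identifier in all 26 count files.

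Aminoacyl-tRNA synthetases join each amino acid to its tRNA and so set the meaning of the genetic code at the ribosome. Mitochondria translate their own genome and import a largely separate set of synthetases from the cytosol, while the GARS1 and KARS1 genes supply both compartments. Several cytosolic enzymes sit in a multi-tRNA synthetase complex. As background, cytosolic synthetase genes are textbook targets of ATF4, the transcription factor of the integrated stress response, which binds C/EBP-ATF response elements (CARE), and arsenite is a classical trigger of that response.

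The libraries were made from HCT116 cells, a human colorectal carcinoma line, that carried Tet-OsTIR1-PURO and knockouts of IGF2BP2 and IGF2BP3 made through single-cell clones. These cells expressed the RNA-binding protein IGF2BP1 as an mCherry fusion from a lentivirus with the hPGK promoter and were sorted through a narrow gate. The fusion was wild type (WT), the linker mutants S181E or Y396E, which put glutamate in place of a serine in the first or a tyrosine in the second disordered linker, or RQ, in which arginines of the first linker are replaced by glutamine. Each of these 4 populations received PBS (control) or 500 µM sodium arsenite for 2 h, with 3 libraries per group from dishes plated independently, so p-values measure the spread between dishes of 1 sorted population. HCT116 cells labelled with no further genotype (parental) gave 1 library per treatment. WT, S181E, Y396E and RQ thus share the knockouts and differ in the transgene and in the sorted population that carries it, and these cannot be told apart. Poly(A) RNA came from clarified lysate.

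Library totals ranged from 22508145 to 50834401 counts, and levels are given as CPM, counts scaled to a common library size, after TMM scaling. Counts were above 0 for 13897 genes in Y396E arsenite replicate 3 and for 20850 or more in each of the 23 remaining mCherry-IGF2BP1 libraries. WT control replicate 2 was the lowest of its group for 17 of the 19 cytosolic synthetases, and RQ control replicate 2 was the lowest of its group for 18. The epithelial marker EPCAM had a mean of 417.5 CPM in WT control cells, the leukocyte marker PTPRC was at 0 and the fibroblast collagen gene COL1A1 at 9.74 CPM. IGF2BP1 itself averaged 12.1 ± 2.27 CPM (SD, n = 3) in control cells of WT, 16.5 ± 1.18 in those of Y396E, 18.6 ± 1.56 in those of S181E and 14.4 ± 1.91 in those of RQ. In arsenite the means were 29.2 ± 1.15 for WT, 47.1 ± 0.863 for RQ, 43.3 ± 0.688 for S181E and 43.2 ± 1.26 for Y396E. Parental cells had 0.347 and 0.645 CPM. The level of the transgene therefore differed between populations, and its part in the differences below was not tested.

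Promoter windows from RefSeq (GRCh38.p14, 250 bases before to 50 after the annotated start) were found for 30 of the 35 genes, all but LARS1, VARS1, YARS1, AARS2 and VARS2. The CARE letters TGATGNAAN, or their reverse complement NTTNCATCA, stood in 6 of the 16 cytosolic windows (37.5%) and in 1 of the 14 mitochondrial windows (7.14%). Among 27305 promoters of the same length, 1002 (3.67%) held them. The core letters of the antioxidant response element, TGACNNNGC or GCNNNGTCA, stood in 3 cytosolic (18.8%) and 2 mitochondrial windows (14.3%), against 13.6% of all promoters. The 7 windows with CARE letters are printed because they are the element named above and the cytosolic genes are grouped by them below. Each is 30 bases on the strand of the gene, 5′ to 3′, with the matched letters in capitals.
AARS1 (chr16:70289675-70289704, minus strand): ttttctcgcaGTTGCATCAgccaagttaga
CARS1 (chr11:3057407-3057436, minus strand): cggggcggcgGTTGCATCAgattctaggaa
IARS1 (chr9:92293692-92293721, minus strand): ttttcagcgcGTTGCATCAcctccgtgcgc
MARS1 (chr12:57488053-57488082, plus strand): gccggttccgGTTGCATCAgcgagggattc
NARS1 (chr18:57621803-57621832, minus strand): ctacgctctcTGATGCAACgccggaatcgc
TARS1 (chr5:33440956-33440985, plus strand): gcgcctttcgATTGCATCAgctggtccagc
YARS2 (chr12:32756075-32756104, minus strand): tccacactgcTGATGGAAAaattaagttta
AARS1, CARS1, IARS1, MARS1 and NARS1 shared the match TGATGCAAC, read on either strand, while TARS1 had TGATGCAAT and YARS2 TGATGGAAA. In CARS1, IARS1, MARS1, NARS1 and TARS1 the match lay within 14 bases of the RefSeq start. A match of letters is a description and shows no binding.

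Per length of exon, the cytosolic genes were the more abundant set. In WT control cells their level ran from 5.95 CPM per kb for LARS1, the leucyl enzyme, to 77.4 for KARS1, the lysyl enzyme, with a median of 31.4. The mitochondrial genes ran from 0 for VARS2 to 33.0 CPM per kb for IARS2, with a median of 6.71. Without VARS2 and SARS2, whose counts do not measure their RNA, the lowest of the 14 was WARS2 at 1.83 and the median 8.48. In 11 pairs of enzymes for the same amino acid, SARS1 and SARS2 left out, the cytosolic gene was the higher in 10. The exception was cysteine, with 13.6 CPM per kb for CARS1 and 24.8 for CARS2. The widest gap of the 11 was tryptophan, at 17.6 for WARS1 and 1.83 for WARS2.

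Every cytosolic gene passed the expression filter of more than 10 CPM in 12 or more of the 24 fitted libraries, and 12 of the 16 mitochondrial genes did. The 4 others are given by level only. PARS2, the mitochondrial prolyl enzyme, lay between 4.00 and 10.0 CPM over the 24 libraries, WARS2 between 4.15 and 10.6 and SARS2 between 2.79 and 6.48. VARS2 was listed at 0 CPM in each of them. All of the exon bases of VARS2 and 71.7% of those of SARS2 are shared on the same strand with another annotated gene (ENSG00000288473 and ENSG00000269547), and the counting left out reads that fell on more than 1 gene. The values of VARS2 and SARS2 are therefore no measure of their RNA.

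Arsenite raised every cytosolic synthetase in WT cells. All 19 were called higher (edgeR quasi-likelihood test, adjusted p under 0.05 and fold change above 1.2, a log2 change of 0.26), where 36.3% of the 9099 genes tested were called higher and 35.9% lower. Their median log2 change was 1.15 against -0.01 over all genes tested, and 1.05 without WT control replicate 2. The mitochondrial genes moved less and in both directions, with 6 of 12 called higher, 1 called lower and a median of 0.38. These are bulk samples, in which fewer cells of a type and less RNA per cell cannot be told apart. The RNA came from clarified lysate, so RNA removed with the pellet was not measured in either treatment.

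AARS1 (ENSG00000090861.17, chr16:70251983-70289707, gene coordinates on hg38), which charges alanine, showed the largest rise. It stood at 49.8, 38.5 and 47.8 CPM in the 3 WT control libraries and at 231.0, 232.4 and 232.6 in arsenite, a log2 change of 2.35 ± 0.09 (SE, adjusted p = 2.63e-17). EPRS1, the fused enzyme for glutamate and proline, went from 45.7, 46.4 and 48.5 to 238.3, 236.4 and 235.7 CPM, a log2 change of 2.34 ± 0.05. LARS1 went from 48.7, 40.9 and 49.3 to 182.7, 177.7 and 175.3 CPM, a log2 change of 1.94 ± 0.06. Arsenite libraries lay far above control libraries for all 3, and without overlap. The valyl enzyme VARS1 and the threonyl enzyme TARS1 followed at 1.85 ± 0.07 and 1.70 ± 0.08 on the log2 scale. The smallest cytosolic changes were those of QARS1, the glutaminyl enzyme, at 0.44 ± 0.04 and of KARS1 at 0.47 ± 0.05.

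**Figure D1:**
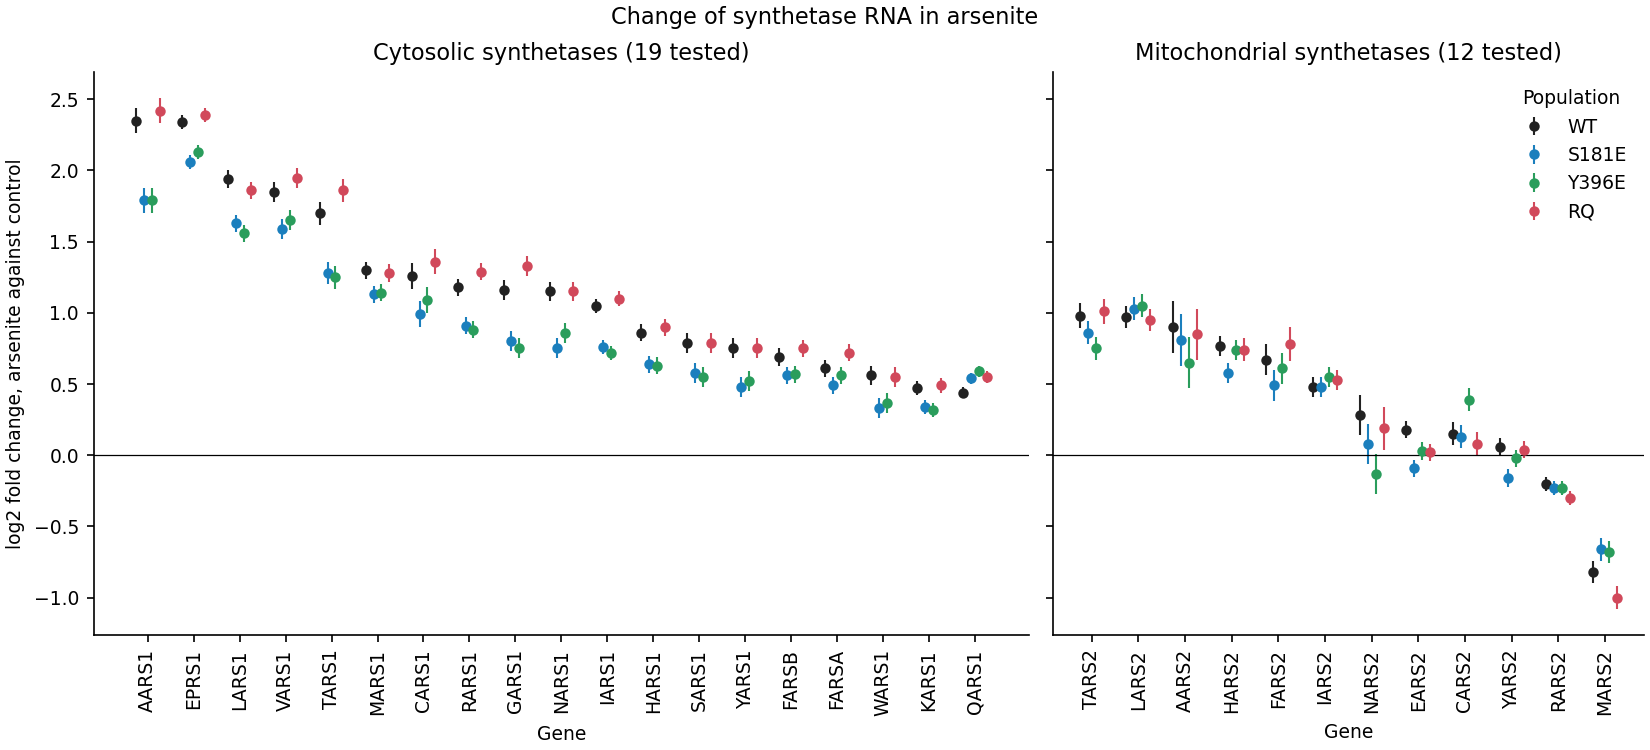
Log2 fold change in arsenite against control for the 19 cytosolic and 12 tested mitochondrial synthetase genes, ordered by the change in WT. Points are the fitted changes in each population and bars their standard errors. Every cytosolic point lies above 0, the WT values run from 0.44 for QARS1 to 2.35 for AARS1, and MARS2 lies below 0 in all 4 populations.

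Among the mitochondrial genes the largest rises were those of the threonyl, leucyl and alanyl enzymes. TARS2 had 13.3, 12.3 and 13.8 CPM in WT control and 26.3, 26 and 25.8 CPM in WT arsenite libraries (log2 change 0.98 ± 0.09). LARS2 had 21.5, 18.1 and 23.1 CPM in control and 41.1, 41.3 and 40.3 CPM in arsenite (log2 change 0.97 ± 0.08), and AARS2 had 12.4, 12.4 and 12.5 CPM in control and 22.9, 22.4 and 24.6 CPM in arsenite (log2 change 0.90 ± 0.18). None of these groups overlapped. HARS2, FARS2 and IARS2, for histidine, phenylalanine and isoleucine, were also called higher, at 0.77 ± 0.07, 0.67 ± 0.11 and 0.48 ± 0.07.

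MARS2 (ENSG00000247626.5, chr2:197705369-197708395), which charges methionine in mitochondria, was the only member called lower in WT cells. It fell from 28.5, 31 and 30.6 CPM to 18.7, 16.2 and 16.3 CPM, a log2 change of -0.82 ± 0.08 (adjusted p = 1.74e-09), while its cytosolic counterpart MARS1 rose by 1.30 ± 0.06. In S181E it went from 27.8, 27.2 and 26.5 to 17.7, 16.3 and 17.7 CPM, in Y396E from 26.1, 25.9 and 25.6 to 16, 18.3 and 14 and in RQ from 31.3, 32.1 and 30.1 to 15.6, 16.2 and 15. Control and arsenite libraries were separate in each population, with log2 changes of -0.66 ± 0.08, -0.68 ± 0.08 and -1.0 ± 0.08. RARS2, the mitochondrial arginyl enzyme, was the other member below 0 in all 4 populations, at -0.30 ± 0.05 in RQ, -0.20 ± 0.05 in WT, -0.23 ± 0.05 in S181E and -0.23 ± 0.05 in Y396E. It passed the fold threshold in RQ and not in the others.

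All 19 cytosolic genes were called higher in arsenite in the other populations too, with medians of 0.76 in S181E (32% of all genes called higher, 33.3% lower), 0.75 in Y396E (32.9% and 32.9%) and 1.15 in RQ (37.1% and 35.8%). Of the 12 mitochondrial genes, S181E cells had 6 called higher and 1 lower (median 0.30), Y396E cells 7 and 1 (median 0.47) and RQ cells 6 and 2 (median 0.36). AARS1 rose by 1.79 ± 0.09 in S181E, 1.79 ± 0.09 in Y396E and 2.42 ± 0.09 in RQ on the log2 scale, and EPRS1 by 2.06 ± 0.05, 2.13 ± 0.05 and 2.39 ± 0.05. In the 18 mutant libraries EPRS1 stood at 53.6, 52.5 and 56.1 CPM in S181E, 48.5, 54.1 and 49.3 in Y396E and 55.3, 51.4 and 50.1 in RQ control cells, and at 222.4, 222.9 and 229.6 for S181E, 213.8, 224.1 and 228.0 for Y396E and 265.3, 275.3 and 282.3 for RQ in arsenite. Arsenite levels were thus higher in RQ than in the other mutants for EPRS1, with no overlap.

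LARS1 had 51.8, 54.9 and 56.4 CPM in S181E, 51.2, 56.5 and 52.3 in Y396E and 56, 50.7 and 54.8 in RQ control libraries, and 163.0, 172.0 and 170.6 for S181E, 159.4, 165.1 and 147.5 for Y396E and 192.6, 193.7 and 201.0 for RQ in arsenite. TARS2 had CPM values of 14.4, 15.2 and 17.3 for S181E, 18.4, 14.8 and 17.2 for Y396E and 15.1, 14.1 and 15 for RQ in control, and 28.2, 26.5 and 30.5 for S181E, 29.7, 27.4 and 27.7 for Y396E and 31.3, 28.5 and 29.1 for RQ in arsenite. For both genes each arsenite library lay above each control library of its population. LARS2 had CPM values of 20, 21 and 20.2 for S181E, 19, 19.4 and 21.6 for Y396E and 20.7, 18.7 and 19.2 for RQ in control and 39.7, 41.1 and 43.7 for S181E, 41.8, 36.8 and 45.9 for Y396E and 38.4, 37.1 and 37.6 for RQ in arsenite, again without overlap. For AARS2 the same groups had CPM values of 13.5, 11.1 and 13.6 for S181E, 12.5, 11.9 and 11 for Y396E and 13, 13 and 12.8 for RQ in control and 25.6, 19.8 and 22.1 for S181E, 24.8, 20.9 and 9.99 for Y396E and 23.1, 23 and 23.8 for RQ in arsenite. Y396E arsenite replicate 3, the library with the fewest genes with counts, was the low value of 9.99 CPM, so that control and arsenite libraries of Y396E overlapped while those of S181E and RQ did not.

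Summed over each set, the cytosolic genes gained weight against the mitochondrial ones. In WT cells the 19 cytosolic genes summed to between 1740.5 and 2012.8 CPM in control and between 4170.7 and 4232.1 in arsenite libraries. The 16 mitochondrial genes summed to between 460.4 and 485.2 and between 590.6 and 599.6 CPM. The ratio of the sums was 4.15, 3.78 and 4.14 in WT control and 6.96, 7.14 and 7.10 in WT arsenite libraries. It was 4.57, 4.47 and 4.49 in S181E control, 4.54, 4.57 and 4.76 in Y396E control and 4.47, 4.21 and 4.70 in RQ control. In arsenite it was 7.0, 7.15 and 6.99 in S181E, 6.89, 6.97 and 7.09 in Y396E, and 7.82, 8.68 and 9.12 in RQ. In control cells all 9 mutant libraries lay above all 3 WT libraries. In arsenite the S181E and Y396E libraries overlapped those of WT, and all 3 RQ libraries lay above every other library of the set.

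**Figure D2:**
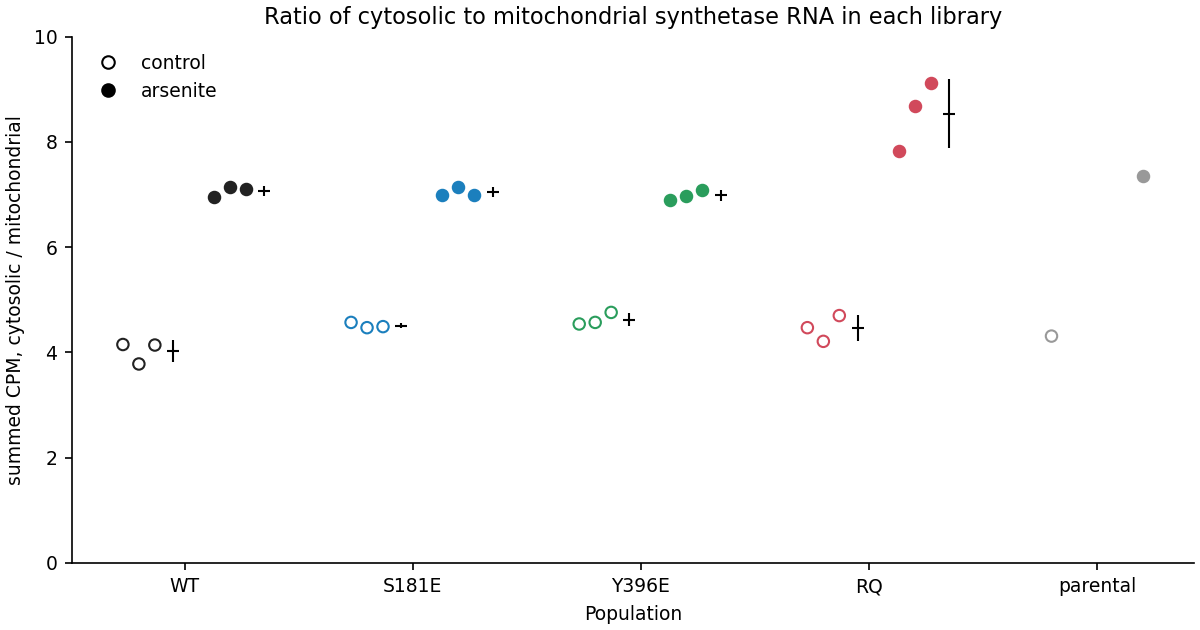
Summed CPM of the 19 cytosolic genes divided by that of the 16 mitochondrial genes, 1 point per library, with open points for control and filled points for arsenite. Horizontal ticks with bars are the mean and SD of 3 libraries, and parental cells have 1 library per treatment. Control libraries lie between 3.78 and 4.76, arsenite libraries between 6.89 and 9.12, and the RQ arsenite libraries are highest.

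Control cells of S181E had more RNA of most cytosolic synthetases than WT control cells. The test called 15 of 19 higher and 0 lower, where 15.7% of all genes tested were called higher and 15.4% lower, and the median log2 difference was 0.29 against 0.02 over all genes. The 4 not called were EPRS1, KARS1 and LARS1, at 0.21 ± 0.05, 0.25 ± 0.05 and 0.23 ± 0.06, under the fold threshold, and QARS1 at -0.12 ± 0.04. Without WT control replicate 2 the count was 5 (AARS1, FARSB, HARS1, RARS1 and TARS1) and the median 0.23. The share of each control library counted on protein-coding genes was 95.1 to 95.8% in S181E and 94.7 to 95.9% in Y396E. It was 89.6 to 91.7% in WT and 89.5 to 90.95% in RQ control libraries. In arsenite libraries it was 98.1 to 98.2% in S181E, 98.0 to 98.3% in Y396E, 97.3 to 97.4% in WT and 97.0 to 97.2% in RQ. The share thus rose more with arsenite in WT and RQ than in S181E and Y396E. Its part in the differences from WT and in the arsenite responses was not tested. With library totals in place of TMM scaling, 18 cytosolic genes were called higher in S181E and the median was 0.52, with that of all genes at 0.246.

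AARS1 and HARS1, the histidyl enzyme, differed most. AARS1 stood at 69.9, 59.8 and 68.5 CPM in S181E against the 49.8, 38.5 and 47.8 of WT, a log2 difference of 0.54 ± 0.09 (adjusted p = 3.53e-05). HARS1 stood at 88.1, 88.4 and 88.8 CPM against 70.6, 56.9 and 67.6, a difference of 0.44 ± 0.06 (adjusted p = 2.15e-06). In both genes all S181E libraries were above all WT libraries. In the remaining groups HARS1 had 83.8, 83.7 and 93.6 CPM in Y396E and 66.7, 60 and 64.2 in RQ control cells, and 116.5, 116.3 and 121.2 for WT, 141.0, 139.0 and 134.5 for S181E, 132.4, 134.2 and 138.0 for Y396E and 120.3, 119.6 and 116.4 for RQ in arsenite. The S181E and Y396E libraries were above those of WT and RQ in both treatments.

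Among the mitochondrial genes 1 of 12 was called higher in S181E control cells, with a median of 0.16. It was YARS2, the mitochondrial tyrosyl enzyme, at 44.6, 43.6 and 41.4 CPM against 35.9, 37.6 and 34.5 in WT (log2 difference 0.26 ± 0.06, adjusted p = 0.000729). The libraries did not overlap, but the difference lay at the fold threshold and EARS2, the glutamyl enzyme, lay just under it at 0.26 ± 0.06. YARS2 had 42.1, 40.9 and 42.1 CPM in Y396E and 33.2, 32.8 and 31.3 in RQ control cells, and in arsenite 37.2, 37 and 38.4 in WT, 40.8, 38.6 and 36.4 in S181E, 40.3, 39.4 and 43.6 in Y396E and 33.6, 34.6 and 31.6 in RQ. RQ libraries were the lowest in both treatments.

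For Y396E fewer members passed the threshold in control, in a comparison that shares the WT libraries with that of S181E. Here 9 cytosolic genes were called higher and 0 lower (14.5% and 14.2% of all genes), with a median of 0.25, and without WT control replicate 2 the count was 5 (again AARS1, FARSB, HARS1, RARS1 and TARS1) and the median 0.19. The called genes were AARS1 at 0.52 ± 0.09, HARS1 at 0.42 ± 0.06, RARS1 at 0.36 ± 0.06, TARS1 at 0.36 ± 0.08, WARS1 at 0.33 ± 0.07, SARS1 at 0.32 ± 0.07, FARSB at 0.30 ± 0.06, GARS1 at 0.28 ± 0.07 and KARS1 at 0.27 ± 0.05. Of the mitochondrial genes TARS2 was called higher, at 18.4, 14.8 and 17.2 CPM against 13.3, 12.3 and 13.8 in WT (log2 difference 0.35 ± 0.09), and the median was 0.13.

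RQ control cells differed from WT in few genes, and several cytosolic synthetases were among them. With 1% of all genes called higher and 0.429% lower, 7 of 19 cytosolic genes were called higher and 0 lower, with a median of 0.19. They were CARS1 (0.57 ± 0.09, adjusted p = 0.000577), SARS1 (0.48 ± 0.07, 0.000317), GARS1 (0.44 ± 0.07, 0.000814), YARS1 (0.41 ± 0.07, 0.00134), AARS1 (0.40 ± 0.09, 0.0198), MARS1 (0.39 ± 0.06, 0.00072) and WARS1 (0.27 ± 0.07, 0.0347). Among the 12 mitochondrial genes 0 were called (2 at an unadjusted p under 0.05, 0 by DESeq2), and the median was 0.06. Without WT control replicate 2, 5 cytosolic genes were called, AARS1 and WARS1 were not, and the median was 0.12. Without RQ control replicate 2, 8 were called.

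In arsenite, RQ cells again had 7 cytosolic genes called higher and 0 lower (1.36% and 0.154% of all genes), with a median of 0.20. This comparison has no library in common with that in control cells. Both compare the same RQ and WT sorted populations and come from the same fit, so a difference between these populations would recur in both. AARS1, CARS1, GARS1, MARS1, SARS1 and YARS1 were called in both treatments, 6 of the 7 genes of either list, while WARS1 was called in control cells alone and TARS1 in arsenite alone. WARS1 had a difference of 0.26 ± 0.07 in arsenite (adjusted p = 0.0379), just under the fold threshold. Among mitochondrial genes 0 were called (2 at an unadjusted p under 0.05, 0 by DESeq2), with a median of -0.05.

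**Figure D3:**
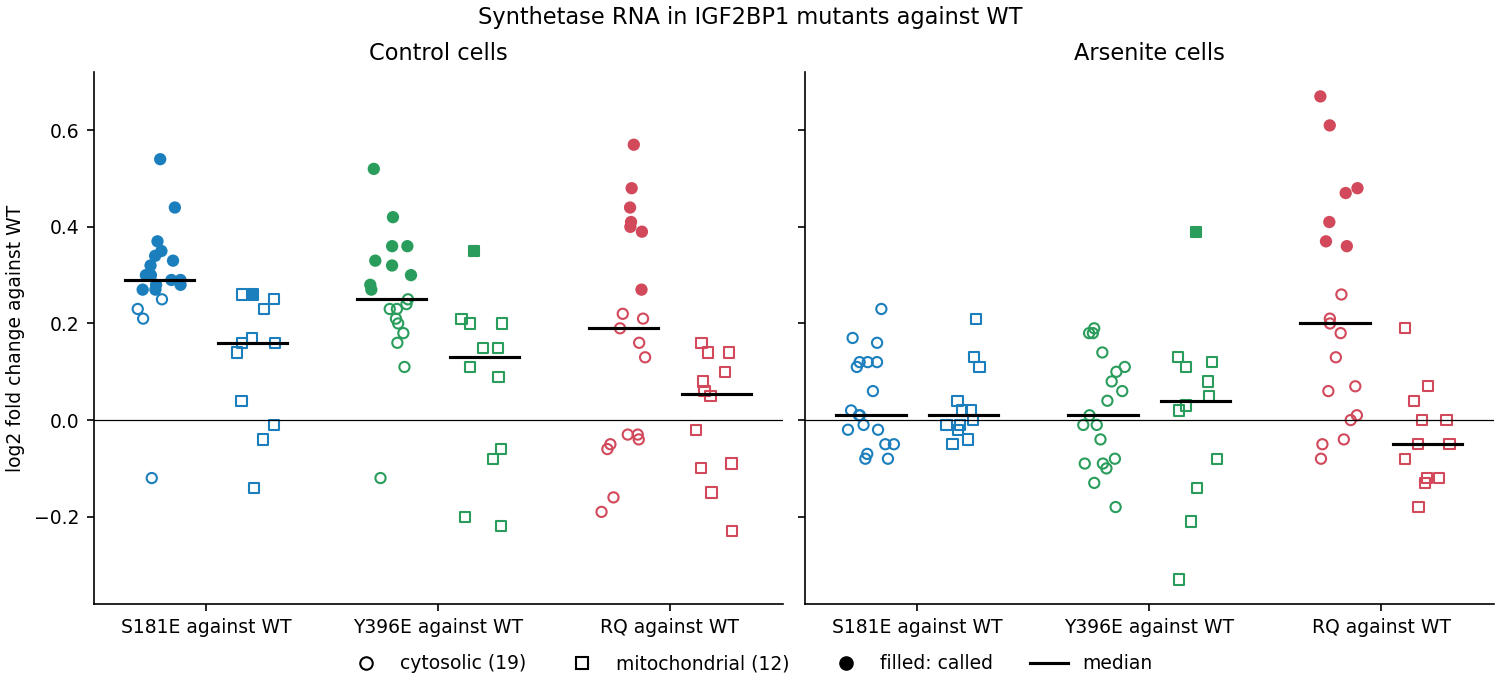
Log2 fold change of each tested synthetase gene in S181E, Y396E and RQ against WT, in control and in arsenite cells. Circles are the 19 cytosolic and squares the 12 mitochondrial genes, filled symbols were called, and horizontal lines are medians. In control cells the cytosolic medians lie at 0.29, 0.25 and 0.19, and in arsenite cells they lie at 0.01, 0.01 and 0.20.

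CARS1 (ENSG00000110619.18, chr11:3000922-3057613), which charges cysteine, showed the largest difference of RQ from WT in both treatments. It had 45.9, 37.9 and 43.1 CPM in WT, 53.8, 49.9 and 51.1 in S181E, 48.6, 46.2 and 47.1 in Y396E and 63, 56 and 70.1 in RQ control libraries. In arsenite it had 99.2, 102.6 and 103.3 CPM in WT, 100.8, 104.5 and 102.1 in S181E, 106.9, 108.3 and 87.5 in Y396E and 143.1, 162.0 and 181.3 in RQ, a log2 difference of RQ from WT of 0.67 ± 0.08 (adjusted p = 9.19e-06). RQ libraries were above all others in both treatments, with the wider gap in arsenite.

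GARS1 (ENSG00000106105.15, chr7:30580533-30634033), the glycyl enzyme of both compartments, had 129.6, 104.8 and 127.3 CPM in WT, 148.2, 145.9 and 144.7 in S181E, 137.4, 147.6 and 154.9 in Y396E and 165.6, 152.4 and 173.8 in RQ control libraries. In arsenite the values were 261.9, 276.3 and 270.7 CPM in WT, 253.3, 253.8 and 258.1 in S181E, 247.9, 251.1 and 240.5 in Y396E and 367.4, 411.6 and 459.4 in RQ (log2 difference of RQ from WT 0.61 ± 0.07, adjusted p = 2.31e-06). The RQ arsenite libraries stood apart from all others, and those of S181E and Y396E lay below the WT libraries.

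AARS1 had 63.2, 65.8 and 66.7 CPM in Y396E and 65, 50.4 and 64 in RQ control libraries. In arsenite it had 232.6, 222.2 and 233.2 CPM in S181E, 232.7, 222.9 and 221.3 in Y396E and 288.8, 310.5 and 361.0 in RQ, the last 0.47 ± 0.08 above WT on the log2 scale (adjusted p = 0.00144). In arsenite the WT, S181E and Y396E libraries overlapped, whereas in control the S181E and Y396E libraries were above those of WT.

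SARS1, which charges serine and also the selenocysteine tRNA, had 94.1, 80.2 and 89.3 CPM in WT, 110.7, 106.1 and 112.1 in S181E, 106.7, 110.6 and 111.6 in Y396E and 124.7, 112.6 and 130.5 in RQ control libraries. In arsenite its CPM values were 150.0, 153.1 and 154.0 for WT, 158.3, 169.5 and 164.3 for S181E, 165.5, 171.9 and 144.9 for Y396E and 189.8, 213.5 and 233.6 for RQ, with RQ 0.48 ± 0.07 above WT (adjusted p = 7.46e-05). All RQ libraries were above those of WT, S181E and Y396E in both treatments.

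YARS1, the tyrosyl enzyme, had 173.1, 139.3 and 167.5 CPM in WT, 198.8, 192.5 and 199.2 in S181E, 184.8, 179.6 and 201.8 in Y396E and 212.1, 201.1 and 226.5 in RQ control libraries. In arsenite its CPM values were 265.8, 275.8 and 267.1 for WT, 273.8, 275.8 and 273.2 for S181E, 261.5, 254.2 and 297.8 for Y396E and 329.0, 356.1 and 390.0 for RQ, with RQ 0.41 ± 0.07 above WT (adjusted p = 0.00077). RQ was separate from WT in both treatments, and from every other population in arsenite.

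MARS1, the methionyl enzyme, had 109.5, 90.3 and 100.4 CPM in WT, 126.7, 122.6 and 119.2 in S181E, 115.3, 118.9 and 124.1 in Y396E and 139.1, 121.7 and 134.0 in RQ control libraries, and 240.4, 252.0 and 245.5 for WT, 266.9, 269.8 and 267.9 for S181E, 262.3, 257.1 and 269.7 for Y396E and 291.9, 316.3 and 347.6 for RQ in arsenite. RQ exceeded WT by 0.37 ± 0.06 in arsenite (adjusted p = 0.000406), without overlap. MARS1 overlaps DDIT3 on the other strand over 65 exon bases, and the counting used strand.

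TARS1 had 100.5, 80.1 and 95.7 CPM in WT, 120.8, 117.9 and 119.9 in S181E, 110.8, 119.5 and 125.2 in Y396E and 113.1, 95.6 and 111.2 in RQ control libraries. In arsenite its CPM values were 292.5, 310.5 and 299.2 for WT, 284.0, 300.8 and 287.9 for S181E, 270.5, 278.9 and 299.0 for Y396E and 342.0, 391.6 and 424.1 for RQ, with RQ 0.36 ± 0.07 above WT (adjusted p = 0.00585). RQ was separate from WT in arsenite and overlapped it in control.

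WARS1, the tryptophanyl enzyme, had 78.5, 66 and 79.8 CPM in WT, 95.5, 93.6 and 95.7 in S181E, 87.8, 91.6 and 101.9 in Y396E and 90.4, 85.2 and 94.7 in RQ control libraries, and 105.8, 110.8 and 113.7 for WT, 120.6, 116.7 and 120.7 for S181E, 118.8, 114.9 and 130.1 for Y396E and 122.2, 134.2 and 138.3 for RQ in arsenite. All mutant libraries were above WT in both treatments, and in control the mutants overlapped each other. In arsenite, RQ replicate 3 was the highest library of its group for 14 of the 19 cytosolic genes.

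**Figure D4:**
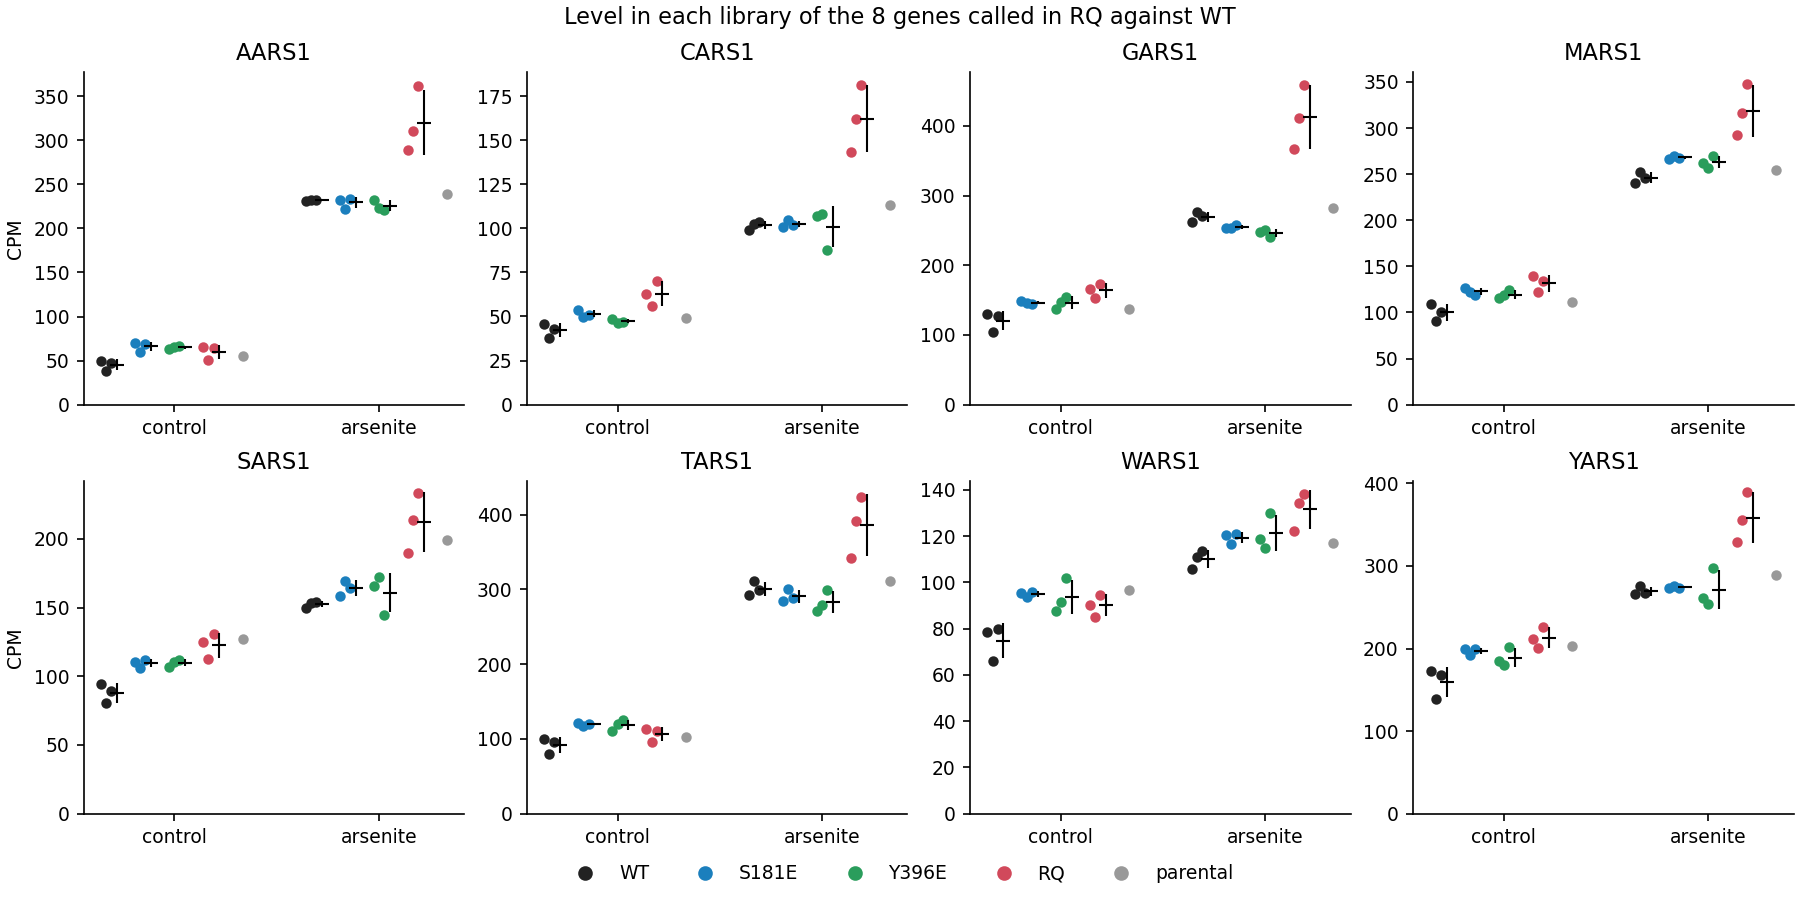
CPM of the 8 cytosolic synthetase genes called in RQ against WT, 1 point per library, in control (left of each panel) and arsenite (right). Black ticks with bars are the mean and SD of 3 libraries, and parental cells have 1 library per treatment. In arsenite the RQ points lie above the WT points in all 8 panels, as in CARS1 with 143.1, 162.0 and 181.3 against 99.2, 102.6 and 103.3 CPM.

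After arsenite, no cytosolic synthetase of S181E or Y396E passed the same test against WT. In S181E 0 of 19 cytosolic genes were called (5.32% of all genes higher, 8.42% lower), with 4 at an unadjusted p under 0.05, 0 by DESeq2 and a median of 0.01. In Y396E 0 were called (9.77% higher, 11.9% lower), with 8 at an unadjusted p under 0.05, 0 by DESeq2 and a median of 0.01. HARS1 had the largest value in both, at 0.23 ± 0.06 and 0.19 ± 0.06, under the fold threshold. Of the mitochondrial genes, S181E had 0 called (2 at an unadjusted p under 0.05, 0 by DESeq2). Y396E had CARS2 called higher, the mitochondrial cysteinyl enzyme, at 60.2, 59.3 and 79.4 CPM against 50.2, 49.2 and 52.5 in WT (log2 difference 0.39 ± 0.08). The high value was Y396E arsenite replicate 3, without which 0 were called.

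RQ and S181E were compared directly, a comparison added after the data had been seen. In control cells 1 cytosolic gene was called higher in RQ and 6 lower (19.4% and 20.2% of all genes). CARS1 was the higher one (0.29 ± 0.09), and RARS1 (-0.53 ± 0.06), HARS1 (-0.47 ± 0.06), FARSA (-0.45 ± 0.06), FARSB (-0.35 ± 0.06), KARS1 (-0.31 ± 0.05) and VARS1 (-0.31 ± 0.07) were lower. With library totals in place of TMM scaling 0 were higher, CARS1 among those no longer called, and 13 lower, with the median of all genes at -0.312. FARSA and FARSB are the subunits of 1 phenylalanyl enzyme. Of the mitochondrial genes YARS2 (-0.41 ± 0.06) and FARS2 (-0.40 ± 0.12) were lower in RQ.

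In arsenite RQ exceeded S181E in 7 cytosolic genes and was lower in 0 (12.9% and 8.42% of all genes). With library totals in place of TMM scaling 6 were higher and 4 lower, with the median of all genes at -0.103, and with no fold threshold 11 were higher and 4 lower. The 7 called with TMM scaling and the fold threshold were GARS1 (0.70 ± 0.07), CARS1 (0.66 ± 0.08), AARS1 (0.48 ± 0.08), TARS1 (0.41 ± 0.07), YARS1 (0.39 ± 0.07), SARS1 (0.37 ± 0.07) and EPRS1 (0.29 ± 0.05). HARS1 and FARSA were at -0.22 ± 0.06 and -0.22 ± 0.06, under the fold threshold, and their libraries were lower in RQ without overlap. Among mitochondrial genes 0 were called (2 at an unadjusted p under 0.05, 0 by DESeq2).

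The difference of the arsenite responses from that of WT was tested for each mutant. In S181E 8 of 19 cytosolic genes responded less than in WT and 0 more (9.41% and 6.98% of all genes), with a median of -0.27 against -0.03 over all genes. They were AARS1 (-0.56 ± 0.12), TARS1 (-0.42 ± 0.11), NARS1 (-0.40 ± 0.09), GARS1 (-0.36 ± 0.10), LARS1 (-0.31 ± 0.09), IARS1 (-0.29 ± 0.07), EPRS1 (-0.28 ± 0.07) and RARS1 (-0.27 ± 0.08). In Y396E 7 responded less and 0 more (11.1% and 10.3%), with a median of -0.23, led by AARS1 (-0.56 ± 0.12), TARS1 (-0.45 ± 0.11) and GARS1 (-0.41 ± 0.10). Both tests share the WT libraries, and without WT control replicate 2 the counts were 4 (AARS1, EPRS1, NARS1 and TARS1) and 5 (AARS1, GARS1, IARS1, LARS1 and TARS1). The median difference of S181E from WT was 0.29 in control and 0.01 in arsenite. In RQ 0 of 19 differed (0.22% of all genes higher, 0% lower), with 0 at an unadjusted p under 0.05 and 0 by DESeq2, and the values ran from -0.08 ± 0.09 for LARS1 to 0.17 ± 0.10 for GARS1. Of the mitochondrial genes EARS2 was called in S181E, at -0.27 ± 0.09, a call lost on leaving out WT control replicate 2 and 8 other libraries in turn, and 0 in Y396E (1 at an unadjusted p under 0.05, 0 by DESeq2) and in RQ (0 and 0).

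**Figure D5:**
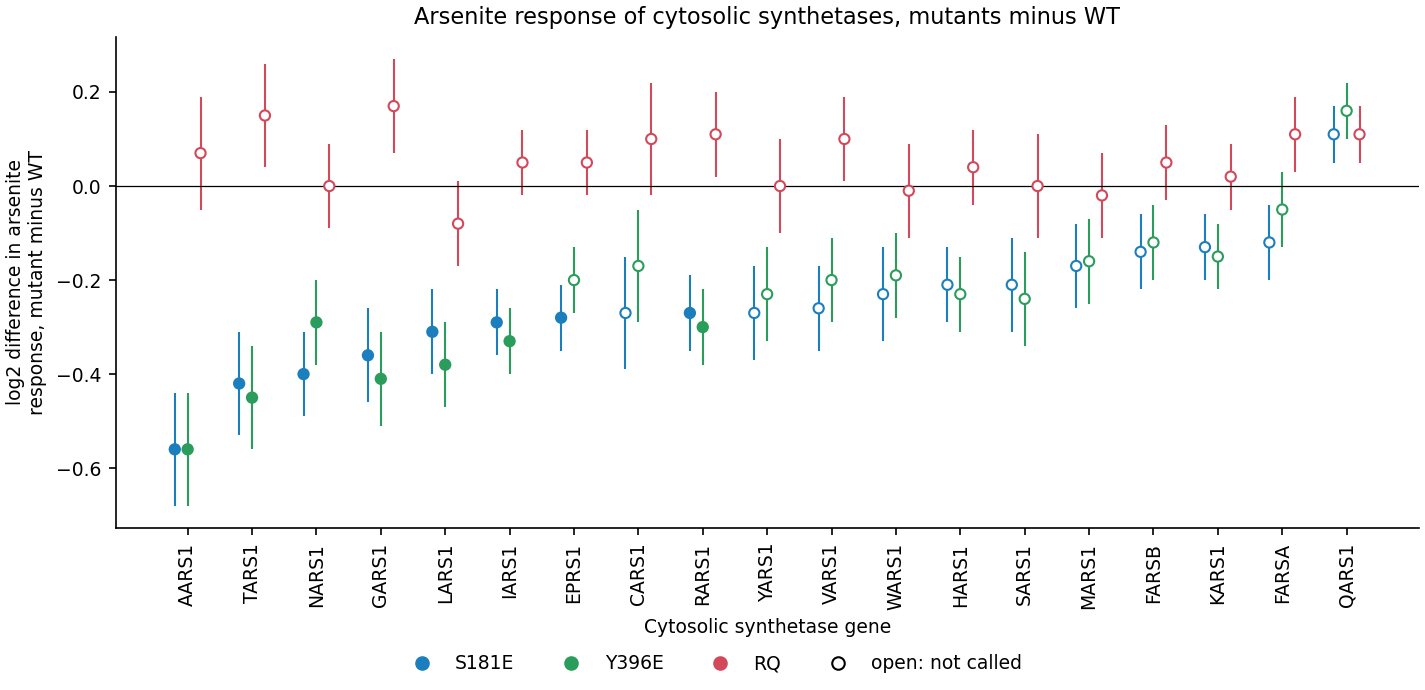
Log2 difference of the arsenite response of each mutant from that of WT for the 19 cytosolic synthetase genes. Points are fitted differences, bars are standard errors and filled points were called. S181E and Y396E lie below 0 for every gene but QARS1, with AARS1 lowest at -0.56 in both, and no RQ point was called.

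The members were also grouped by the multi-tRNA synthetase complex and by class. In WT arsenite the 7 enzymes of the complex (EPRS1, IARS1, KARS1, LARS1, MARS1, QARS1 and RARS1) had a median of 1.18 and the 12 others 1.00. In S181E control cells 3 of the 7 and all 12 others were called higher (15.7% of all genes), with medians of 0.25 and 0.31. EPRS1, KARS1 and LARS1 lay under the log2 threshold of 0.26, KARS1 at 0.25, while VARS1 was called at 0.27. Without WT control replicate 2, 5 cytosolic genes were called, RARS1 of the complex and AARS1, FARSB, HARS1 and TARS1 of the others. In RQ against WT the complex had a median of 0.13 in both treatments, the others 0.24 for control cells and 0.31 after arsenite. In either treatment 1 of the 7 (MARS1) and 6 of the 12 others were called higher, against 1% of all genes (control) and 1.36% (arsenite). These counts describe the lists and were not tested. The enzymes of class I and class II, which differ in the fold of the catalytic domain, had medians of 1.22 (10 genes) and 0.86 (9 genes) in WT arsenite. EPRS1, the fused enzyme for glutamate and proline, was counted in class I alone and was the highest there at 2.34.

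Genes with CARE letters in the RefSeq window were compared with the other cytosolic genes that had a window, again without a test. The 6 with the letters rose by a median of 1.28 in WT arsenite, from 1.05 for IARS1 to 2.35 for AARS1, and the 10 without by 0.74, from 0.44 for QARS1 to 2.34 for EPRS1. In RQ against WT the medians were 0.30 and -0.03 in control, with 3 of 6 and 3 of 10 called higher (1% of all genes). In arsenite they were 0.37 and 0.04, with 4 of 6 and 2 of 10 called higher (1.36% of all genes). LARS1, VARS1 and YARS1 had no window and are missing from these lists. LARS1 and VARS1 were among the largest arsenite rises, and YARS1 was called in RQ in both treatments. GARS1 and SARS1 were called in RQ in both treatments without the letters in their windows, and EPRS1 was among the largest arsenite rises without them.

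Other genes of tRNA charging were read in WT arsenite. GATB, a subunit of the mitochondrial glutaminyl-tRNA amidotransferase, was called higher, at 0.69 ± 0.08. Called lower were GATC, another subunit of it, at -0.75 ± 0.07, MTFMT, which formylates mitochondrial methionyl-tRNA, at -0.48 ± 0.06 and DTD1, a D-aminoacyl-tRNA deacylase, at -0.28 ± 0.09. The scaffold genes of the multi-tRNA synthetase complex were not called, at -0.04 ± 0.06 for AIMP1, 0.12 ± 0.05 for AIMP2 and -0.18 ± 0.07 for EEF1E1.

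Reference genes of the ATF4 response were read beside the synthetases. Of 11 genes, 9 were tested (ATF4, CEBPB, DDIT3, PHGDH, PSAT1, SESN2, SLC3A2, SLC7A11 and TRIB3), and ASNS and CHAC1 did not pass the expression filter. In WT arsenite 7 were called higher and 2 lower (36.3% and 35.9% of all genes), with DDIT3 at 3.48 ± 0.09 and SESN2 at 2.10 ± 0.12 the largest. The 2 called lower were ATF4 itself, at -0.30 ± 0.04, and SLC7A11, with means of 31.6 CPM in control and 25.3 CPM in arsenite. In RQ against WT 5 were called higher and 0 lower in control (1% and 0.429% of all genes). Among them were the cystine transporter gene SLC7A11 at 1.45 ± 0.09 and the serine synthesis gene PSAT1 at 1.22 ± 0.09. In arsenite all 9 were called higher (1.36% of all genes), among them TRIB3 at 1.83 ± 0.12 and ATF4 at 0.42 ± 0.04. The arsenite response of 4 of the 9 was larger in RQ than in WT and that of 0 smaller (0.22% and 0% of all genes). The median difference was 0.41, whereas 0 of the 19 cytosolic synthetases were called in that comparison. In S181E 4 were called higher and 1 lower in control (15.7% and 15.4% of all genes), and 2 and 1 in arsenite (5.32% and 8.42%). In Y396E the counts were 4 and 0 in control (14.5% and 14.2%), and 2 and 1 in arsenite (9.77% and 11.9%). ATF4 and SESN2 were not among the 5 called in RQ control cells. ATF4 averaged 807.9 CPM in RQ and 803.7 in WT control cells, and SESN2 11.7 and 14.4. The part of the reference genes in the synthetase differences was not tested.

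Parental cells are described without a test. Their control library had 55.1 CPM of AARS1, 48.9 of CARS1, 137.7 of GARS1 and 127.3 of SARS1. The arsenite library had 239.0, 113.2, 283.0 and 199.4 CPM. AARS1 and GARS1 lay above the WT libraries in both treatments and below the RQ libraries in arsenite. SARS1 in the parental libraries lay within the range of RQ libraries in both treatments. The control library also had 202.6 CPM of YARS1 and 102.8 of TARS1, within the RQ range, 96.7 of WARS1, above it, and 110.9 of MARS1, below it. In arsenite YARS1, TARS1, WARS1 and MARS1 stood at 289.0, 310.9, 117.0 and 254.2 CPM, above the WT and below the RQ libraries. The ratio of the summed cytosolic to mitochondrial levels was 4.31 in control and 7.35 in arsenite.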

How the data were processed

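Total RNA from 26 libraries was measured by poly(A) RNA-seq. The authors aligned single reads with STAR 2.7.11b to hg38 and counted exons per gene with featureCounts 2.0.6 (strand setting 2, GENCODE 46), and deposited these whole-number counts without normalization. Identifiers were matched to symbols with GENCODE 44 (62541 of 63086 genes). Exon overlaps were found from the exon coordinates deposited with the counts (GENCODE 46). Members and lists were chosen with earlier results of these data known.

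Protein-coding genes with more than 10 CPM in 12 or more of the 24 fitted libraries (9099 genes) were fitted in one model with edgeR 4.0.16 (R 4.3.3, TMM scaling, quasi-likelihood test, Benjamini-Hochberg adjustment, 16 residual degrees of freedom). Genes were called at an adjusted p under 0.05 and a fold change over 1.2. The common biological coefficient of variation was 0.0682 and library totals ran from 22508145 to 50834401 counts. Errors of log2 values are standard errors. The scripts were tested on simulated data. Alternatives were DESeq2 1.42.0, other scalings, filters and thresholds, a replicate block and leaving out each library. The comparisons of RQ with S181E were added after the data were seen. Values in every library are given for members called in RQ against WT, for the 3 largest called rises and falls per compartment by arsenite in WT, and for the 2 largest called differences per compartment and direction in S181E control cells. No member was called with opposite signs in S181E and RQ against WT. CARS2 was added after its values were seen. Some other genes of tRNA charging are not reported here.

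Same-numbered libraries deviated together in every pair for RQ against WT (correlations of 0.291, 0.525 and 0.472 in control and 0.149, 0.148 and 0.15 in arsenite), and the blocked fit called 7 cytosolic genes in each.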

Additional observations from a re-analysis of the deposited data

Results flagged for a closer look

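The arsenite response differed from that of WT, by the interaction test in edgeR (adjusted p under 0.05, fold over 1.2), for 8 cytosolic genes and 1 mitochondrial gene in S181E cells. On the log2 scale, mutant minus WT, the values were -0.56 for AARS1, -0.42 for TARS1, -0.40 for NARS1, -0.36 for GARS1, -0.31 for LARS1, -0.29 for IARS1, -0.28 for EPRS1, -0.27 for RARS1 and -0.27 for the mitochondrial EARS2. In Y396E cells 7 cytosolic genes differed, with -0.56 for AARS1, -0.45 for TARS1, -0.41 for GARS1, -0.38 for LARS1, -0.33 for IARS1, -0.30 for RARS1 and -0.29 for NARS1. Both sets of values share the WT libraries, and without WT control replicate 2 the cytosolic counts were 4 and 5.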

How the results depend on the processing

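In arsenite 19 cytosolic genes were called in each population under each alternative except a fold over 1.5, which left 16 in WT, 13 in Y396E, 16 in RQ and 12 in S181E. No member's value that was called in the main fit or in the alternative changed sign. Sign changes of values called in neither were not counted. Of the members' values, 11049 of 11160 with a library left out and 4382 of 4650 under the other alternatives kept their call. With library totals only, under which the all-gene median log2 difference stood at 0.246 for S181E and 0.208 for Y396E in control, the mitochondrial counts called became 11 for arsenite in WT, 8 in S181E control, 7 in Y396E control, 3 and 3 for the S181E and Y396E responses, and 9 (control) and 1 (arsenite) for RQ against S181E. The cytosolic counts became 18 in Y396E control, 4 in RQ control, 1 in S181E arsenite, 18 and 16 for the S181E and Y396E responses and 13 (all lower) for RQ against S181E in control, and in arsenite that comparison gave 6 higher and 4 lower. Under library totals the all-gene median also moved, to 0.243 for arsenite in WT and to -0.2 and -0.178 for the S181E and Y396E responses. In those 2 responses 2651 and 2743 of the 9099 genes were called. For RQ against S181E the all-gene median was -0.312 in control and -0.103 in arsenite. With no fold threshold the cytosolic counts were 17 in Y396E control, 3 in S181E arsenite, 4 in Y396E arsenite and 15 for RQ against S181E in arsenite (11 higher and 4 lower), and the mitochondrial ones 5 in S181E control, 6 in Y396E control, and 5 and 1 for RQ against S181E in control and arsenite. With a fold over 1.5, arsenite in S181E gave 4 mitochondrial genes, RQ arsenite 2 cytosolic, RQ against S181E in arsenite 2, and 0 remained past the threshold in all control comparisons, in the responses and for CARS2 in Y396E arsenite. The single mitochondrial call in S181E control became 0 with RLE factors, DESeq2, no filter or only the groups compared, and 2 with the filter of CPM over 1 or all gene types. That of the S181E response became 0 with RLE factors, DESeq2, no filter and only the groups compared, and that of Y396E arsenite 0 with only the groups compared. The cause of these changes was not tested.

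Leaving out each library in turn gave cytosolic counts of 5 to 17 in S181E control, 5 to 13 in Y396E control, 5 to 8 in RQ control, 6 to 8 in RQ arsenite, 4 to 11 and 5 to 10 for the S181E and Y396E responses, and 6 to 7 and 6 to 9 for RQ against S181E. Mitochondrial counts ran from 7 to 8 for arsenite in WT, 1 to 2 in S181E control, 0 to 3 in Y396E arsenite, and 0 to 1 and 0 to 2 for the S181E and Y396E responses. The lowest counts in S181E and Y396E control and in both cytosolic responses came without WT control replicate 2. With the replicate block, 10 cytosolic genes were called for the S181E response, VARS1 and YARS1 in addition, and no other cytosolic or mitochondrial count moved. Outside RQ against WT, equal numbers were not shown to pair the libraries throughout. Against WT in control the correlations of same-numbered libraries were 0.0138, 0.238 and 0.308 for S181E. For Y396E they were -0.0433, 0.0499 and 0.42, so that some exceeded those of RQ against WT in arsenite.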
